A study of Mus musculus with 3 samples.

Results

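Chemokines are small secreted proteins that guide migrating leukocytes through G protein-coupled receptors, and interleukins are secreted signals between immune and tissue cells that act mostly through receptor chains coupled to JAK kinases or to MyD88. The genes of both families and of their receptors were examined in mesangial cells, contractile cells that support the capillaries inside each kidney glomerulus. Genes were chosen by symbol alone: all those beginning with Ccl, Cxcl, Ccr, Cxcr, Ackr or Il and a digit, or with Cx3c, Xcl1 or Xcr1. This gave 132 of the 19938 genes that a probe set of their own named on the array.

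The mice were adult CD-1 males carrying the transgene Tg(Meis1-EGFP)FO156Gsat, in which Meis1 regulatory sequence on a bacterial artificial chromosome drives a green fluorescent protein. The cortex was digested with collagenase, glomeruli were caught on a sieve, and their cells were freed with trypsin and sorted by fluorescence, and the labels name both glomerular and extraglomerular mesangium as the source. There were 3 samples of 1 kidney each in 1 group, with no treated, sorted-negative or whole-kidney control, so no test between groups was possible. Whether the kidneys came from separate mice is not given in the sources used here, so part of the spread between samples may be technical. In RNA of a sorted population, fewer cells of a type and less RNA per cell cannot be told apart.

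Levels are the deposited log2 array signals, as mean ± SD over n = 3 samples. Probe sets differ in affinity, so each gene was read against a background level of its array and never against another gene. That background, called the threshold here, was the 95th percentile of 1269 probe sets of keratin-associated proteins and of receptors for odours, pheromones and trace amines, families that kidney cells should hardly express. It lay at 7.48, 7.46 and 7.40 in samples 1, 2 and 3. A gene was called above when it passed on all 3 arrays. Of the silent genes themselves 4.71% passed, and 0.958% lay more than 1 above, so a gene within 1 of the threshold was close to background. All 10 listed mesangial markers, among them Pdgfrb and Itga8, lay more than 1 above it. The marker lists were chosen with earlier results of these data known, so this count does not test the threshold.

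Most chemokine and interleukin genes were not above background in the sorted cells. Of the 13 genes clearest of it, 9 were interleukin receptor chains, 3 were ligands and 1 was an antagonist. Of the 132 genes 41 (31.1%) were above the threshold, where 58.0% of all 18685 named genes outside the silent families were. Of the 132, 13 (9.85%) lay more than 1 above it, where 32.7% of all named genes did. The median of the lowest difference from the threshold was -0.46 for the 132 genes, 0.29 for all named genes and -1.92 for the silent genes. By role, 17 of 31 interleukin receptor chains (54.8%) were above, 10 of 34 chemokine ligands (29.4%), 9 of 36 interleukin ligands (25%), 4 of 18 chemokine receptors (22.2%), none of 4 atypical chemokine receptors and 1 of 6 antagonists and decoy receptors. The share of the interleukin receptor chains was thus near that of all named genes, and the other shares were lower. More than 1 above the threshold lay 9 of the 31 chains (29.0%), also close to the 32.7% of all named genes. No difference between these shares was tested. With the threshold at the 99th percentile of the silent genes 18 of the 132 stayed above, and at the 90th percentile 64 were.

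**Figure D1:**
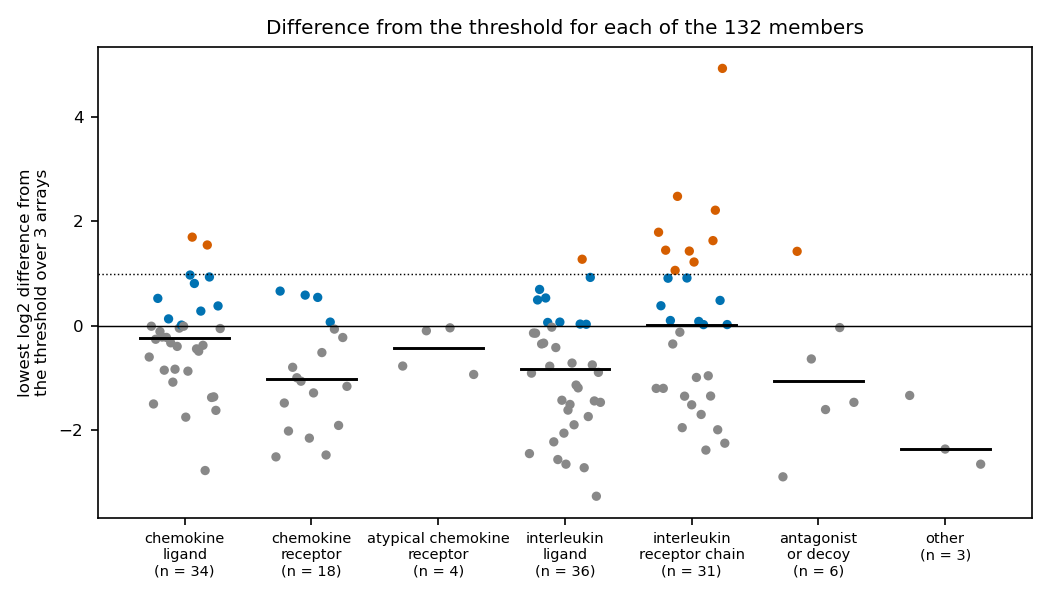
Each point is 1 of the 132 genes, placed by the lowest of its 3 log2 differences from the array's threshold (solid line at 0, dotted line at 1), with black bars for the median of each role. Grey genes were not above, blue genes were above by at most 1 and orange genes by more. Of the 13 orange points 9 are interleukin receptor chains, 29.0% of the 31 chains, where 32.7% of all named genes lie more than 1 above. Probe sets differ in affinity, so heights are read against the lines only.

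A single array value says little about precision here, because many signals were the same on different arrays. Of the 132 genes 85 (64.4%) carried 1 value on all 3 arrays, against 51.1% of all named genes and 67.3% of the named genes that were not above. A value given as identical is therefore not a measurement without error.

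Among the chemokine ligands, 2 lay more than 1 above the threshold. Cxcl1, which attracts neutrophils through Cxcr2, had 9.18, 9.18 and 9.14 in samples 1, 2 and 3 (9.16 ± 0.02). Cxcl16, a membrane-bound chemokine and scavenger receptor that binds Cxcr6, had 9.29, 9.01 and 8.96 (9.09 ± 0.18). All 3 samples were clear of the threshold for both genes, and sample 1 was the highest for Cxcl16. The span of Cxcl16 overlaps that of Zmynd15, whose own probe set had 7.82 in each sample. The receptor genes of both were not above, with Cxcr2 at 5.01 and Cxcr6 at 7.26 in each sample. The close relatives of Cxcl1 were not above either: Cxcl2 had 6.11 ± 0.07, Cxcl3 6.12 and Cxcl5 5.85 ± 0.02.

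The interferon-inducible chemokine Cxcl10, a ligand of Cxcr3 on activated T cells, differed more between samples than any other member. It had 9.62 in sample 1, 10.39 in sample 2 and 8.21 in sample 3 (9.41 ± 1.10), all above the threshold, with a range of 2.17. Its relative Cxcl9 had 8.47, 9.07 and 7.78 (8.44 ± 0.64), a range of 1.28. Both genes were highest in sample 2 and lowest in sample 3. The related Cxcl11 was not above, at 7.04 in every sample. Their shared receptor gene Cxcr3 was barely above, at 7.55 in every sample. Art3, a mesangial marker whose gene span overlaps those of Cxcl10 and Cxcl11, had 11.60, 11.80 and 11.49, the same order of samples as Cxcl10 over a range of 0.31. The part that overlapping transcripts had in the Cxcl10 signal was not tested.

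The 250 bases upstream of the start of Cxcl10 and of Cxcl9 are shown because, of the 4 members with a range over 1, these were highest in sample 2 and lowest in sample 3. They are from RefSeq on GRCm38.p6, read 5′ to 3′ on the minus strand at chr5:92348890-92349139 and chr5:92328080-92328329. Capitals mark matches on either strand to the core AANNGAAA bound by interferon regulatory factors or to the NF-kappa-B consensus.
Cxcl10: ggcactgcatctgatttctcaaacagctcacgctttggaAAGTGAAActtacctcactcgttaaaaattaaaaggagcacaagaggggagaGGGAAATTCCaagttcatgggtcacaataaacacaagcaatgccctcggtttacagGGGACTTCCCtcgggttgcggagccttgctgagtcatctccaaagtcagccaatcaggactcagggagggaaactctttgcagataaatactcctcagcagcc
Cxcl9: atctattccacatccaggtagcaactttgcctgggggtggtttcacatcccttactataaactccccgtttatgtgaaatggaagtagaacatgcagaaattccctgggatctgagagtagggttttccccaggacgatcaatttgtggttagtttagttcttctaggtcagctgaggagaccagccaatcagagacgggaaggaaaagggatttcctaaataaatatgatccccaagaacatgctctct
The Cxcl10 window held 1 match to the interferon regulatory factor core, from base -211 to -204 relative to the start, and 2 to the NF-kappa-B consensus, from -159 to -150 and from -103 to -94, with no overlap between them. The Cxcl9 window held no match to either. Of 32851 mouse promoter windows of this length, 21.3% held the first motif, 3.90% the second and 0.670% both. For 101 of the 132 genes 115 windows were at hand, of which 32.2% held the first motif, 11.3% the second and 3.48% both. A match is a string of letters and not a measured binding site.

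Genes that interferon is known to induce were often highest in sample 2 and lowest in sample 3, as Cxcl10 and Cxcl9 were. The list of 22 such genes was chosen with earlier results of these data known. Of the 17 measured, 15 were above the threshold and 13 by more than 1, where 58.0% and 32.7% of all named genes were. Of the 14 whose values differed between arrays, 10 were highest in sample 2 alone, 12 lowest in sample 3 alone and 8 ran in the order 2, 1, 3, an order that 408 of 9139 varying named genes (4.46%) had. Of those 9139 genes 19.5% were highest in sample 2 alone and 20.7% lowest in sample 3 alone. The guanylate-binding GTPase Gbp3 had 9.50, 10.10 and 9.13, and the transcription factor Irf1, an activator of interferon-responsive promoters, had 9.06, 9.51 and 8.94. The GTPase Irgm1, with 9.58, 10.61 and 10.04, was highest in sample 2 but lowest in sample 1. Among the receptor chains and inhibitors Il15ra had 8.39, 8.78 and 8.39, and Il18bp 8.90, 9.07 and 8.90, both highest in sample 2 and equal in samples 1 and 3. Others ran differently, with Il1rap highest in sample 1 and Il13ra1 in sample 3. Of the 22 varying members above the threshold 8 were highest in sample 2 alone, 5 in sample 1 alone and 3 in sample 3 alone.

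**Figure D2:**
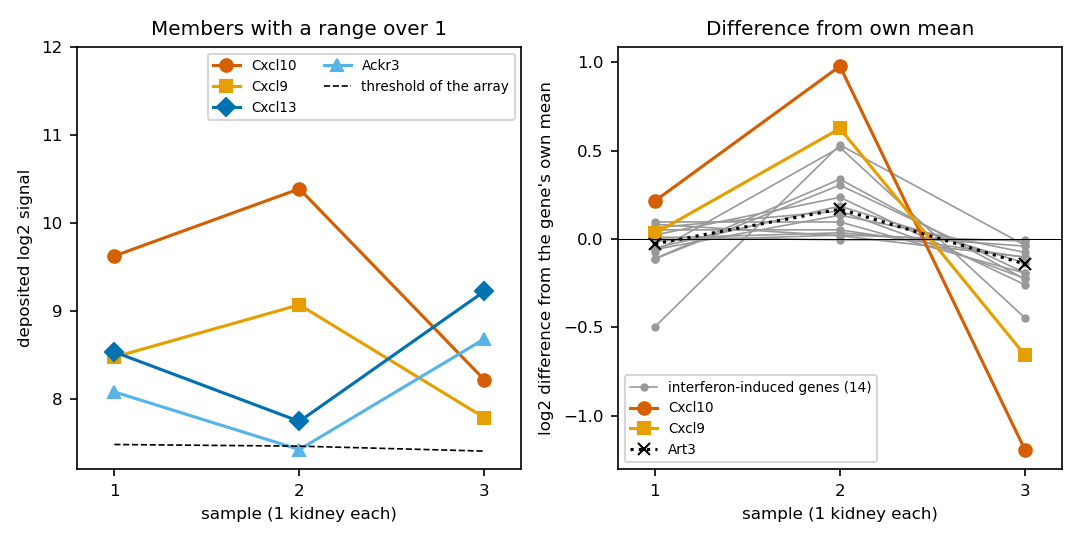
Left, log2 signal of the 4 members whose values differed by more than 1 between samples, with the threshold of each array dashed; right, the log2 difference from each gene's own mean for Cxcl10, Cxcl9, the 14 varying interferon-induced genes and the overlapping gene Art3. Lines join the values of 1 gene and the samples have no order; Cxcl10 and Cxcl9 peak in sample 2, Cxcl13 and Ackr3 in sample 3.

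A pair of other members ran the opposite way. Cxcl13, which guides B cells through Cxcr5, had 8.53, 7.74 and 9.22 (8.50 ± 0.74), above the threshold in every sample. Ackr3, an atypical receptor that takes up Cxcl12 and Cxcl11 without G protein signalling, had 8.08, 7.42 and 8.68 (8.06 ± 0.63). It was above the threshold in samples 1 and 3 and just under it in sample 2. Both genes were highest in sample 3 and lowest in sample 2. Their partners were not above, with Cxcr5 at 5.56 ± 0.01 and Cxcl12 at 6.99 in every sample.

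These 4 genes were the members with a range over 1, 3.03% of the 132, where 0.615% of all named genes (115 of 18685) had such a range. Of those 115 genes 14 ran in the order of Cxcl10, from sample 2 through 1 to 3, and 16 in the order of Cxcl13, from 3 through 1 to 2. The count rested on samples 2 and 3: without sample 1 it stayed at 4, without sample 2 only Cxcl10 had a range over 1, and without sample 3 none of the 132 did. Markers of other kidney cells also differed between the samples. The mean of the endothelial list was 9.14, 9.07 and 9.19 and that of the podocyte list 8.18, 8.12 and 8.21 in samples 1, 2 and 3, both highest in sample 3 and lowest in sample 2. Single genes of these lists mostly ran otherwise: 2 of 8 varying endothelial genes and 1 of 5 varying podocyte genes had the order of Cxcl13 and Ackr3, from sample 3 through 1 to 2. All 10 endothelial genes and 4 of 6 measured podocyte genes were above the threshold, where 58.0% of all named genes were. Of the endothelial genes 6 were above by more than 1, among them Eng at 11.17 ± 0.17 and Tek at 10.78 ± 0.12. The other 4, Pecam1, Cdh5, Kdr and Tie1, were close to the threshold, with means from 7.55 to 7.66. Of the podocyte genes 2 were above by more than 1. The 8 proximal tubule genes averaged 7.36, 7.36 and 7.16, with 3 above, and the 6 of the loop and distal tubule 7.86, 8.07 and 7.89, with 5 above. Of the proximal tubule genes 2 varied between arrays, Kap with 8.44, 8.51 and 7.17 and Slc34a1 with 8.24, 8.25 and 7.96. Both ran from sample 2 through 1 to 3, the order of Cxcl10 and Cxcl9, and Kap had a range of 1.33. Among the loop and distal tubule genes Umod, with 9.51, 9.18 and 8.22, was lowest in sample 3, while Calb1, with 7.72, 8.66 and 8.49, and Pvalb, with 7.67, 8.21 and 8.38, were lowest in sample 1. Of these 6 genes 2 were lowest in sample 3 alone and 3 in sample 1 alone. The part of these cells in the differences was not tested.

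Besides Cxcl10, Cxcl9 and Cxcl13, 5 chemokine ligands were above the threshold by at most 1. The membrane-anchored Cx3cl1, which holds monocytes to endothelium, had 8.45 and Cxcl17 8.41, each identical in the 3 samples. Ccl19, which draws cells to lymph nodes, had 8.04, 7.99 and 7.99 by the probe set of highest mean among its 5. It stayed above by that of lowest mean, and its probe sets may be shared with near-identical pseudogene copies. Ccl25 had 7.64 ± 0.04, and its second probe set was not above. Ccl6, at 7.49, 7.53 and 7.49, was the member nearest to the threshold from above.

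The 24 chemokine ligands that were not above had means from 4.71 to 7.49. They included the monocyte attractant Ccl2, a chemokine much studied in glomerular inflammation, at 7.37, 7.47 and 7.41, which passed the threshold in samples 2 and 3 but not in sample 1. The T cell attractant Ccl5 had 7.44 in each sample and passed in sample 3 alone. Ccl7, with 7.47, 7.50 and 7.50, and Ccl11, with 7.47 in each sample, likewise passed in samples 2 and 3 and fell just short in sample 1. The interleukin gene Il17f, at 7.45 in each sample, passed in sample 3 alone, while Il27ra and Il9r, each at 7.50, passed just barely in all 3 samples, as Ccl6 did. The calls of these last 6 genes turn on the exact place of the threshold.

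Chemokine receptors were represented by 4 genes, all within 1 of the threshold. Cx3cr1, the receptor of Cx3cl1 on monocytes and macrophages, had 8.02, 8.02 and 8.03. Ccr7, the receptor of Ccl19, had 8.07 in every sample, and Ccr10 had 8.14, 8.25 and 8.25. Cxcr3 is given above with its ligands. The span of Ccr10 overlaps that of Cntnap1, which had 7.38, 7.59 and 7.60 and was likewise lowest in sample 1. The 14 receptors not above had means from 4.97 to 7.43, among them the leukocyte receptors Ccr2 at 5.47 and Ccr1 at 4.97 ± 0.06 and the Cxcl12 receptor Cxcr4 at 7.43 ± 0.02. Apart from Ackr3, the scavenging receptors had 7.39 for Ackr2, 6.77 ± 0.07 for Ackr1 and 6.55 for Ackr4.

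Markers of leukocytes, which carry most of these receptors, were mostly not above, where 58.0% of all named genes were above. Of 12 macrophage genes 4 passed, namely Cx3cr1 itself, Cd68 at 7.85 ± 0.07, Aif1 at 7.75 and Mrc1 at 11.81 ± 0.10. The defining macrophage genes Adgre1 at 5.56 and Csf1r at 6.60 did not. The mean of the macrophage list lay between 7.41 and 7.44 in the 3 samples. None of 8 neutrophil, 5 B cell or 6 mast cell genes passed, 1 of 8 T and NK cell genes did (Cd3e, 7.78), and 1 of 6 dendritic cell genes (Zbtb46, 7.95 ± 0.02). The part of leukocyte RNA in the receptor signals was not tested.

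**Figure D3:**
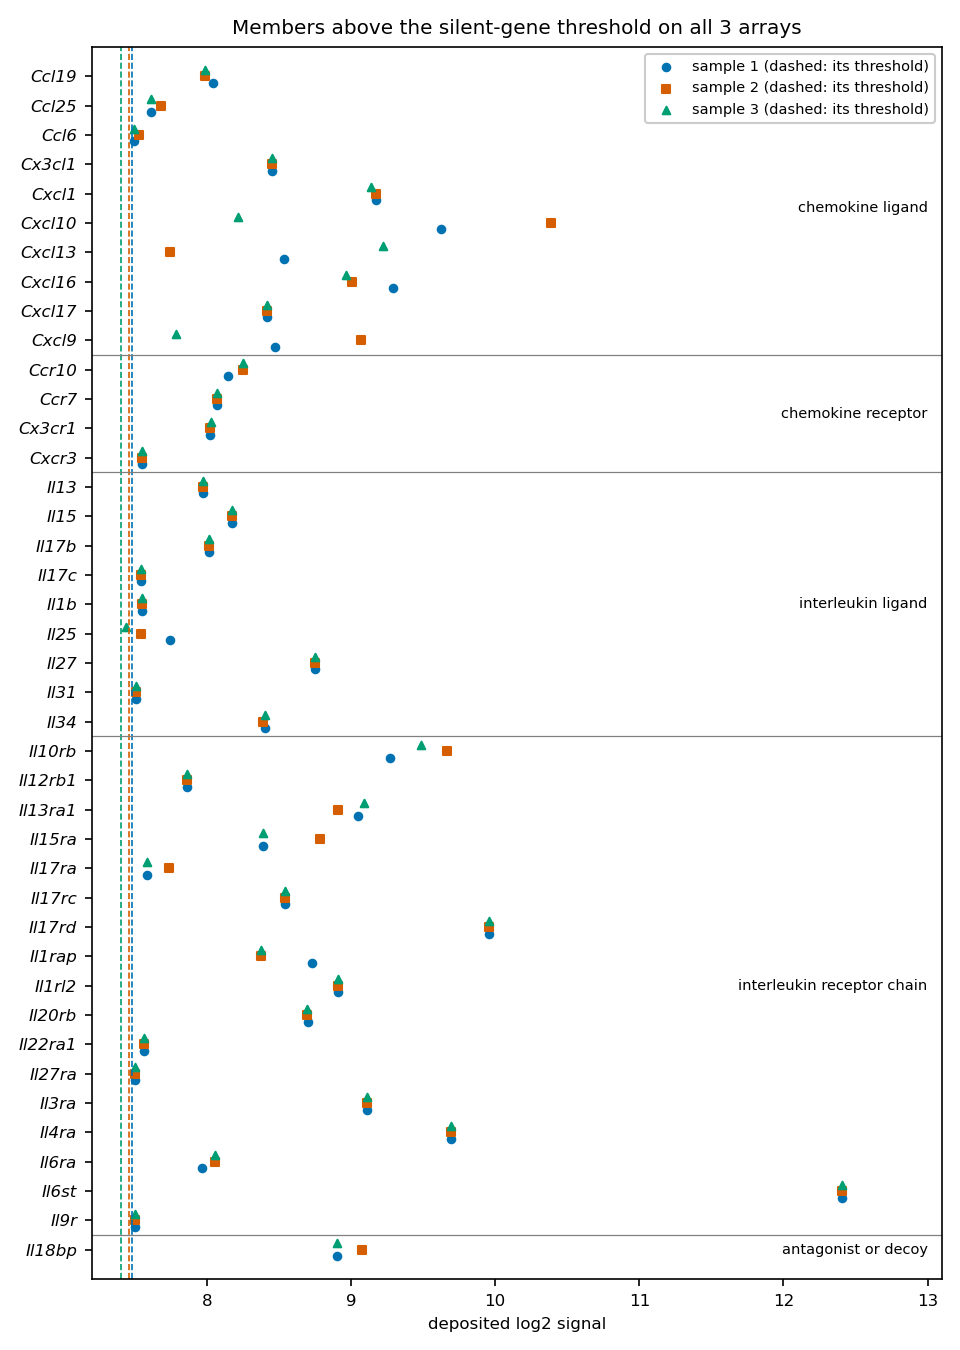
Log2 signal in samples 1 (circles), 2 (squares) and 3 (triangles) of the 41 genes above the threshold on all 3 arrays, alphabetical within each role, with the 3 thresholds dashed. Most genes show nearly equal signals in the 3 samples, while Cxcl10, Cxcl9 and Cxcl13 spread widely.

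Interleukin receptor chains made up 9 of the 13 genes more than 1 above the threshold. Those 9 were 29.0% of the 31 chains, where 32.7% of all named genes lay more than 1 above. Il6st encodes gp130, the signalling chain shared by interleukin 6, interleukin 11, LIF and oncostatin M. It had 12.40 in every sample. Its binding partner for interleukin 6, Il6ra, had 7.97, 8.05 and 8.05, within 1 of the threshold. Il4ra, the chain that binds interleukins 4 and 13, had 9.69 in every sample, and its partner Il13ra1 had 9.05, 8.91 and 9.09 (9.02 ± 0.10). Both chains of the type II receptor for interleukins 4 and 13 were thus above the threshold by more than 1.

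Il10rb, a chain shared by the receptors of interleukins 10 and 22 and of lambda interferons, had 9.27, 9.66 and 9.49 (9.47 ± 0.20), lowest in sample 1. The ligand-specific chain Il10ra was not above, at 6.30 ± 0.03. Among receptors of the interleukin 17 family, Il17rd, which also restrains fibroblast growth factor signalling, had 9.96 in every sample by its brighter probe set and a mean of 8.87 by the other. Il17rc, which pairs with Il17ra to bind interleukin 17A, had 8.54 in every sample, and Il17ra had 7.58, 7.74 and 7.58, close to the threshold. Il17rb at 7.13 and Il17re at 7.36 were not above.

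Il3ra, the specific chain of the interleukin 3 receptor, had 9.11 in every sample, while Csf2rb, a beta chain it signals with, was not above at 6.76 ± 0.01. Il1rl2, the receptor of the interleukin 36 cytokines, had 8.91 in every sample. Il20rb, a chain of the receptors for interleukins 19, 20 and 24, had 8.70, 8.69 and 8.69 by its brightest probe set and 8.01 by the lowest of its 3, which is within 1 of the threshold. Its usual partner Il20ra was not above, at 5.97. For Il3ra and Il20rb the partner named here was thus not above, though these chains may have other partners. Il10rb lacked Il10ra at that level, while Il22ra1, its partner for interleukin 22, was barely above.

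The other 8 receptor chains above the threshold were within 1 of it. They included Il15ra and Il6ra given above and Il1rap, the accessory chain of the receptors for interleukins 1, 33 and 36, with 8.73, 8.38 and 8.38 (8.49 ± 0.21), highest in sample 1. Il12rb1 had 7.86 and Il22ra1 7.56, each identical in the 3 samples, and Il22ra1 was not above by its second probe set. The 14 chains not above had means from 5.15 to 7.36 and included Il2ra at 5.15 ± 0.10, Il2rb at 6.53 ± 0.01 and Il7r at 5.23, which lymphocytes carry. Il1r1, Il1rl1, Il2rg, Il11ra1 and Il11ra2 were not analysed here, so the receptors of interleukins 1, 2, 11 and 33, among others, were seen only in part.

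Of 36 interleukin genes, 1 lay more than 1 above the threshold. Il27, the p28 subunit of a cytokine that signals through Il27ra and gp130, had 8.75 in every sample. Its span overlaps that of Apobr, which had 7.99, and its partner subunit gene Ebi3 was not above at 7.27. Within 1 of the threshold, Il34, a ligand of the macrophage growth receptor Csf1r, had 8.40 ± 0.01, and Il15, which sustains natural killer and memory T cells, had 8.18 in every sample. Il17b had 8.01 and the type 2 cytokine Il13 7.97 ± 0.00. Il25, with 7.74, 7.54 and 7.44, Il17c at 7.54 and Il31 at 7.51 were nearest to it.

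The classical inflammatory interleukins were at or under background. Il6, which cultured mesangial cells are known to make, had 4.22 in every sample and was not above. Il1b was barely above, at 7.55 in every sample, and Il1a was not, at 5.05 ± 0.12. The anti-inflammatory Il10 had 5.03. The alarmins Il33 at 5.74 and Il18 at 5.26 were not above either.

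Of the antagonists and decoy receptors, Il18bp, a secreted protein that neutralises interleukin 18, lay more than 1 above the threshold with 8.90, 9.07 and 8.90 (8.96 ± 0.10). The interleukin 1 receptor antagonist Il1rn, at 7.45 ± 0.01, was above in none of samples 1 and 2 and passed in sample 3 alone. The decoy receptors Il1r2 at 5.88 and Il13ra2 at 4.59, the interleukin 22 binding protein Il22ra2 at 6.02 and the interleukin 36 antagonist Il1f5 at 6.85 were not above. The symbol rule also took in the antisense gene Il1bos and the synaptic proteins Il1rapl1 and Il1rapl2, with means from 4.83 to 6.17.

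Ligands and receptors were then read together for 81 textbook pairs, of which 69 had both genes measured. In 10 pairs both genes were above the threshold, in 19 the receptor gene alone, in 10 the ligand gene alone and in 30 neither. The 10 pairs with both were Cxcl9 and Cxcl10 with Cxcr3, Ccl19 with Ccr7, Cx3cl1 with Cx3cr1, Il1b with Il1rap, Il13 with Il4ra and with Il13ra1, Il15 with Il15ra, and Il27 with Il27ra and with Il6st. In 9 of these pairs at least 1 gene was within 1 of the threshold, and at the 99th percentile threshold 1 of the 10 pairs, Il27 with Il6st, was left. For the receptor chains more than 1 above the threshold, Il13 and Il27 were the listed ligands above it. Those measured and not above were Il6 and Il11 (6.57) for Il6st, Il4 (6.80 ± 0.06) for Il4ra, Il10 for Il10rb, Il3 (4.76) for Il3ra, Il17a (7.15) for Il17rc, Il20 (6.77) and Il24 (6.29) for Il20rb. The interleukin 36 genes Il1f6, Il1f8 and Il1f9, ligands of Il1rl2, were also not above, at 5.43, 4.84 ± 0.02 and 5.87.

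Cytokines and cytokine receptors of the same families whose names fall outside the symbol rule were taken from a list. That list, too, was chosen with earlier results of these data known. Of 19 measured genes 9 were above the threshold and 4 by more than 1, where 58.0% and 32.7% of all named genes were. The gp130 partners Osmr, the oncostatin M receptor, and Lifr, the LIF receptor, had 11.16 ± 0.18 and 10.72 ± 0.05, with Osmr highest in sample 2 at 11.37. The macrophage growth factor Csf1 had 8.94 and the thymic stromal lymphopoietin receptor Crlf2 8.47 ± 0.04. Of the ligands in the list that act through gp130, Osm at 6.74 and Lif at 6.77 ± 0.01 were not above, while Clcf1 was above by less than 1, at 7.92 in every sample. Of 10 chemokine-related genes named otherwise 3 were above, namely the chemoattractant Rarres2 at 12.40 ± 0.11, Mif at 10.35 ± 0.02 and Gpr35 at 8.01 ± 0.07. The chemerin receptor Cmklr1, at 7.31, was not. Cklf, with 7.14, 7.76 and 8.16, was above in samples 2 and 3 and not in sample 1.

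Genes that carry the signal inside the cell were read against the same shares of all named genes, 58.0% above the threshold and 32.7% by more than 1. Their lists, too, were chosen with earlier results of these data known. Of 21 JAK, STAT and SOCS genes 18 (85.7%) were above and 10 by more than 1, among them the kinases Jak1 at 11.59 ± 0.01 and Jak2 at 10.31 ± 0.15 and the STAT inhibitor Pias1 at 10.40 ± 0.09. Of 23 genes from the interleukin 1 receptor to NF-kappa-B 22 (95.7%) were above and 10 by more than 1, among them the kinase Map3k7 at 10.38 ± 0.07, its adaptor Tab2 at 10.39 ± 0.16 and the adaptor Traf3ip2 of interleukin 17 receptors at 9.29 ± 0.07. Of 22 genes of G protein and arrestin signalling 16 (72.7%) were above and 13 by more than 1, with Gnai2 at 12.06 ± 0.09, Gnb1 at 12.06 ± 0.04 and Rac1 at 11.69 ± 0.03. Many of these genes serve other receptors as well. Dock2 at 6.26, Pik3cg at 7.10 ± 0.07 and Elmo1 at 6.42 were among the 6 not above. Plcb2 at 8.78 ± 0.16 was above by more than 1, and Pik3r5 at 8.12 and Rac2 at 7.58 by less.

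**Figure D4:**
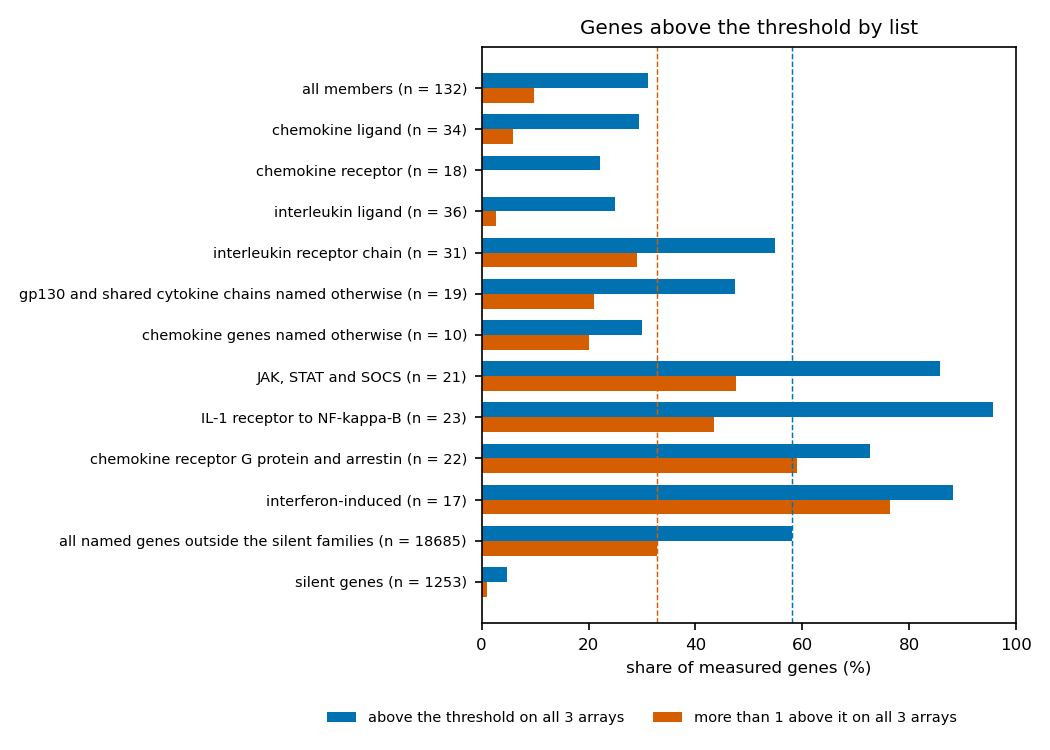
Share of measured genes above the threshold on all 3 arrays (blue) and more than 1 above it (orange), for the 132 members, their main roles and the signalling lists, with all named genes and the silent genes at the bottom and the shares of all named genes dashed. Ligands and chemokine receptors lie under both dashed lines, interleukin receptor chains close to them and the intracellular and interferon-induced lists to the right of them. The lists were chosen with earlier results of these data known, and no difference was tested.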

How the data were processed

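The 3 male adult kidneys, 1 per array, were profiled after fluorescence sorting of Meis1-EGFP cells. RNA was amplified with the WT-Ovation Pico system and labelled with biotin, per the labels' protocols. The authors deposited log2 probe set signals; per the submitters' processing notes the software was Affymetrix Expression Console. Its version and settings were not stated in these sources. The log2 base was inferred from the highest value, 14.39. The number of arrays limits the precision.

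Genes were named from 21789 of 35557 probe sets with 1 symbol (1621 had several, 12147 none listed), updated by Entrez number with RefSeq on GRCm38.p6. A gene with several probe sets (5 members) was read from that of highest mean. Counts were read against a silent-gene threshold, with no test, in Python 3.11.15 with pandas 2.3.3; the calling step was tested on simulated data. Members more than 1 above the threshold or with a range over 1 are named with all values, as are fixed classical genes, listed partners and the 3 nearest to the threshold on each side; further genes were chosen after their values were seen. The members and lists were chosen with earlier results of these data known. Alternatives were the 90th and 99th percentile, olfactory receptors alone, the mean over arrays, the lowest probe set, median scaling, symbols as annotated and each sample left out.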

Additional observations from a re-analysis of the deposited data

How the results depend on the processing

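The call depended mainly on the threshold. At the 90th percentile of the silent genes 64 members were above, 21 by more than 1, and 18 pairs had both genes above, while 68.8% of all named genes were above. At the 99th percentile the numbers were 18 members, 3 by more than 1 (Il6st, Il17rd and Il4ra), 1 pair and 53 pathway genes (83 as reported), with 35.3% of all named genes above. There Cxcl10, Cxcl9, Cxcl13 and all 4 chemokine receptors were no longer above. Under the other alternatives (olfactory receptors alone, the mean over arrays, the lowest probe set, median scaling, symbols as annotated) between 39 and 49 members were above and between 12 and 18 by more than 1. Median scaling moves a sample's signals and its threshold together, and no member had been renamed. Median scaling and symbols as annotated were therefore no independent check, and each left 41 members above and 13 by more than 1. Leaving out 1 sample at a time gave between 41 and 44 members above, and between 0 and 4 members with a range over 1. No paired analysis was possible because there was 1 group.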

Other observations

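Members that share a probe set with other genes were left out of the counts, and their signals are given here without a gene of origin. The 3 probe sets shared by Ccl27a, Ccl27b and unnamed copies, ligands of Ccr10, had 8.77 in every sample (2 probe sets) and 9.01, 9.01 and 9.02 (1 probe set), more than 1 above the threshold. The 4 probe sets shared by the Ccl21 copies, ligands of Ccr7, all had 7.98, 7.73 and 7.73, within 1 of it. The probe set of Il4i1 and Il4i1b had 7.73, 7.62 and 7.62. The 2 probe sets of Il22 and Iltifb, with 6.71, 6.57 and 6.57 and with 6.79, 6.61 and 6.61, were not above.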
